A study of Mus musculus with 3 samples.

Results

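The Bcl2 family decides, at the mitochondrial outer membrane, whether a stressed cell survives or dies. Anti-apoptotic members bind and hold the 2 pore-forming effectors, Bax and Bak1. The BH3-only members sense damage or loss of growth factor signals, and either occupy the anti-apoptotic members or activate the effectors, after which cytochrome c leaves the mitochondrion and caspases are switched on. Haematopoietic stem and progenitor cells are known from mouse knockouts to depend on Mcl1 in particular. The genes examined were 10 members of the family, given by symbol, out of 24982 gene symbols in the deposited files: 3 anti-apoptotic genes (Bcl2, Bcl2l1, Mcl1), the 2 effectors and 5 BH3-only genes (Bcl2l11, Bid, Bad, Bbc3, Pmaip1). All 10 were present in the files.

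RNA was sequenced from LKS cells of mouse bone marrow, which are sorted as lacking lineage markers and carrying both Kit and Sca1 and include the blood stem and early progenitor cells. There was 1 library from CD73-/- recipient mice, which lack the cell-surface enzyme that makes adenosine from AMP (the KO library), and there were 2 libraries from WT recipient mice. The labels give no age, strain or treatment, do not tell if the cells derive from the recipient or a donor, and do not state whether a library holds 1 animal or a pool. P-values therefore measure only the spread between these libraries, which may be technical. Nt5e, the gene for CD73, had 0 counts in all 3 libraries, so the KO label could not be checked.

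Depth was low, with 264704 gene counts in the KO library, against 361638 in WT replicate 1 and 324954 in WT replicate 2. A count of 1 was worth 3.78, 2.77 and 3.08 CPM (counts scaled to a library total of 1000000 gene counts) in that order. The floor for a gene at 0, taken as 3 counts, was 11.3, 8.30 and 9.23 CPM. Rn45s, the ribosomal RNA precursor, took 2.07% of KO counts and 1.33% and 1.46% of WT counts. The LKS gate genes Kit and Ly6a (Sca1), and also Cd34 and Ptprc, were detected in every library. Kit had 555 CPM in KO and 517 and 637 CPM in WT, and Ly6a had 136 against 166 and 58.5 CPM. Cd34 had 416 CPM in KO and 636 and 597 CPM in WT, and Ptprc had 159 against 401 and 415 CPM. The summed level of these 4 genes was 1266 CPM in KO and 1720 and 1708 CPM in WT. Summed levels of markers of other cells were 2588 CPM in KO and 99.5 to 637 CPM in WT for 6 dendritic cell genes. Of these, H2-Aa, H2-Ab1, Cd74 and Irf8 were higher in KO than in either WT library. Itgax had 0 CPM in KO and 11.1 and 0 CPM in WT, and Siglech was at 0 in every library. The sum was 5115 CPM against 2787 to 3413 CPM for 7 neutrophil genes (Ly6g at 0). Of these genes, Mpo and Elane are also expressed by progenitors. Without Mpo and Elane the neutrophil sum was 336 CPM in KO and 669 and 708 CPM in WT, the opposite direction. Monocyte and macrophage genes summed to 408 CPM in KO and 99.5 to 443 CPM in WT, but the genes went opposite ways. Csf1r, Itgam and Ccr2 were higher in KO than in either WT library. Lyz2, the largest part of the WT replicate 2 sum, was lower in KO than in either, and Adgre1 was detected in WT replicate 2 alone. Erythroid genes summed to 525 CPM in KO against 129 to 426 CPM in WT (Hba-a1, Hbb-bs and Klf1 at 0). Of the detected genes, Hbb-bt had 431 CPM in KO and 418 and 129 CPM in WT, and Epor had 94.4 against 8.30 and 0 CPM. B cell genes summed to 0 against 13.8 to 58.5 CPM (Cd79a and Ms4a1 at 0). T and NK cell genes summed to 155 against 105 to 191 CPM (Cd3e, Cd3g and Klrb1c at 0). Stroma and endothelium genes summed to 128 against 144 to 191 CPM (Lepr, Cdh5 and Col1a1 at 0), but the detected genes went opposite ways. Pecam1 had 98.2 CPM in KO and 144 and 191 CPM in WT, while Cxcl12 had 8 counts in KO and 0 in both WT libraries. The part of these differences in the results below was not tested, and in bulk RNA fewer cells of a type and less RNA per cell cannot be told apart.

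The 10 members together had 221 counts in KO, against 218 in WT replicate 1 and 188 in WT replicate 2, or 0.0835% of the KO library and 0.0603% and 0.0579% of the WT libraries. Of the 10 members, 8 had a count in some library, and Bbc3 and Pmaip1 had none anywhere. The filter on low counts left 7 to be tested. Neither direction held a call among them: 0 of the 7 passed at an adjusted p of 0.05, where 0.100% of the 7984 tested genes did (quasi-likelihood test of edgeR with Benjamini-Hochberg adjusted p-values). The count was also 0 of 7 at an unadjusted p under 0.05, against 3.53% of all tested genes on the higher side and 6.51% on the lower. DESeq2 called 0 of the 7 as well, with no adjusted p for Bcl2l1, Bak1 and Bcl2l11. With that tool 1 of the 7, Bid, had an unadjusted p under 0.05, where 1055 of the 7984 tested genes did. Among the 7 tested members the KO level lay above both WT levels in 4 and below both in 2, where this held for 31.1% and 38.2% of all tested genes; Bcl2l11, 1 of the 4, passed the filter only through its KO count. The log2 fold change (KO over WT) was positive in 4 of 7, with a median of 0.58, beside a median of -0.31 over all tested genes, of which 43.1% were positive.

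**Figure D1:**
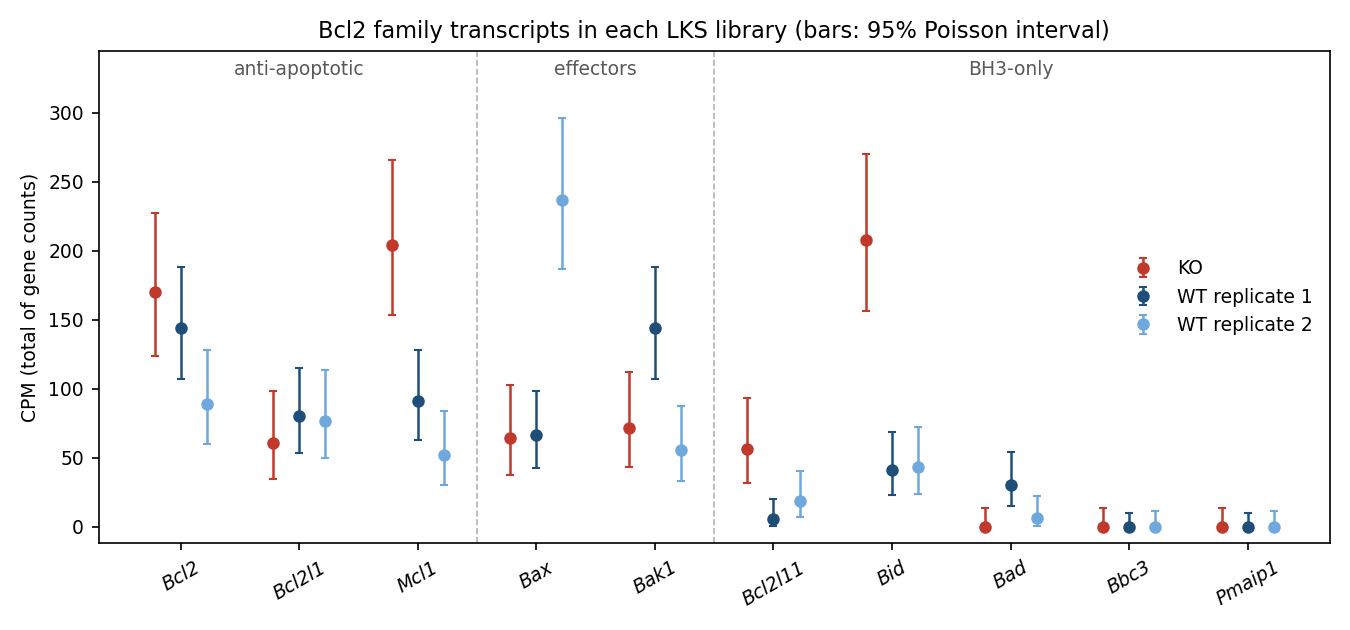
CPM of the 10 Bcl2 family members in the KO library (red), WT replicate 1 (dark blue) and WT replicate 2 (light blue); points are single libraries and bars are 95% Poisson intervals, which cover counting error only. Mcl1, Bid and Bcl2l11 stand higher in KO than in either WT library, Bax and Bak1 are set apart mainly by 1 WT library, and Bbc3 and Pmaip1 are at 0 throughout.

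Among the anti-apoptotic genes, Mcl1 was the one whose KO level lay farthest from the WT pair. Mcl1 (chromosome 3, 95656944 to 95663179, mm10) encodes a short-lived guardian that holds Bak1 and Bim. It had 54 counts in KO, against 33 and 17 in WT replicates 1 and 2, or 204 CPM (95% Poisson interval 153 to 266) against 91.3 (62.8 to 128) and 52.3 CPM (30.5 to 83.8). The KO library was thus the highest of the 3, and its interval did not meet those of the WT libraries. The ratio of KO to WT was 2.24 (exact 95% counting interval 1.42 to 3.56) for WT replicate 1 and 3.90 (2.23 to 7.18) for WT replicate 2. The log2 fold change of 1.54 (SE 1.15, edgeR adjusted p 0.74) did not pass. That test sets the fold change against a spread between libraries that is pooled over genes.

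Bcl2 (chromosome 1, 106538176 to 106714290), the founding survival gene of the family, had 45 counts in KO, against 52 and 29 in the WT libraries, which came to 170 CPM against 144 and 89.2 CPM. The KO level was the highest, but WT replicate 1 was nearer to KO than to its own replicate. The log2 fold change was 0.58 (SE 1.10, edgeR adjusted p 0.92). Of the 2 RefSeq transcripts counted for Bcl2, the second, NM_177410, held 7 of the 45 KO counts, 10 of 52 in WT replicate 1 and 0 of 29 in WT replicate 2, and was given an FPKM of 0 in all 3 libraries.

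Bcl2l1 (chromosome 2, 152758732 to 152833803) encodes Bcl-xL, the guardian best known in erythroid precursors and platelets. Its level was 60.4 CPM in KO, against 80.2 and 76.9 CPM in the WT libraries, from 16, 29 and 25 counts. KO was the lowest, yet its counting interval of 34.5 to 98.2 CPM took in both WT values, and the log2 fold change was -0.34 (SE 1.53, edgeR adjusted p 0.97). The transcript rows that these counts were compatible with differed between the libraries. All 16 KO counts were compatible with NR_149254, a row with the RefSeq prefix of a non-coding transcript, against 17 of 29 and 7 of 25 WT counts (100%, exact binomial 95% interval 79.4 to 100, against 58.6%, 38.9 to 76.5, and 28%, 12.1 to 49.4). The reverse was seen for NM_001289739, with 0 of 16 KO counts, 12 of 29 in WT replicate 1 and 18 of 25 in WT replicate 2. All 16 KO counts were also compatible with the coding rows NM_001289716, NM_001289717, NM_001355053 and NM_009743. The counts therefore do not show that the KO reads came from a non-coding transcript. NR_149254 and NM_001289739 were picked from the 6 rows of the gene, and no such share was computed over all genes. In the deposited FPKM, 37.7 of the 37.8 FPKM of the gene in KO was given to NR_149254, which had 0 FPKM in both WT libraries. There the 35.0 and 33.7 FPKM were divided between NM_009743 (23.3 and 22.4) and NM_001289717 (11.8 and 11.3). On this unit the sign for the gene was turned, with a log2 difference of 0.13 on the log2(FPKM + 1) scale (limma, adjusted p 0.91). With 16 KO reads, shared among several of these transcripts, the division is the authors' estimate and has no replicate in KO.

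**Figure D2:**
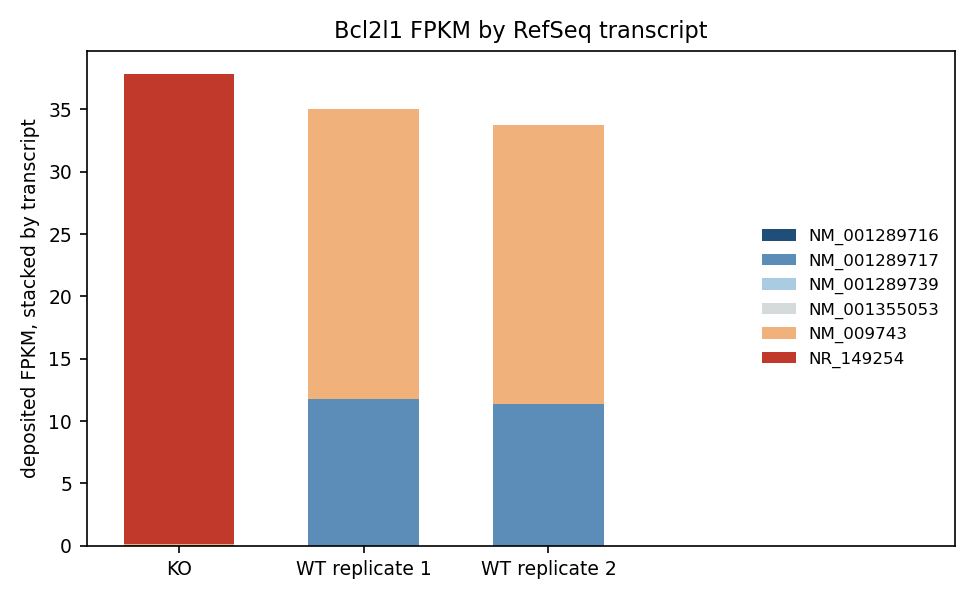
Deposited FPKM of Bcl2l1 in the KO library and WT replicates 1 and 2, stacked by RefSeq transcript. The totals are close, 37.8 in KO against 35.0 and 33.7 FPKM in WT, while nearly all of the KO bar is NR_149254 and the WT bars are NM_009743 and NM_001289717.

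The effectors, which form the pores in the outer membrane, were set apart by the WT libraries as much as by KO. Bax (chromosome 7, 45461695 to 45466903) had 17 counts in KO, against 24 and 77 in the WT libraries. This was 64.2 CPM in KO against 66.4 CPM in WT replicate 1 and 237 CPM in WT replicate 2. The KO library and WT replicate 1 were nearly equal, and WT replicate 2 stood alone, 3.57-fold above the other WT library. The log2 fold change was -1.19 (SE 1.25, edgeR adjusted p 0.83), and against WT replicate 1 alone, with no test, it was -0.017.

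Bak1 (chromosome 17, 27019812 to 27028627) showed the opposite division of the WT pair. It had 19 counts in KO, against 52 and 18 in the WT libraries, or 71.8 CPM against 144 and 55.4 CPM. KO lay between the WT values, 2.003-fold below WT replicate 1 and 1.30 times the level of WT replicate 2. The log2 fold change of -0.44 (SE 1.38, edgeR adjusted p 0.95) turned to 0.38 with WT replicate 2 as the only WT library, a value with no test. The summed level of both effectors was 136 CPM in KO, against 210 and 292 CPM in WT.

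The BH3-only genes included the member with the largest difference by edgeR, Bid (chromosome 6, 120893119 to 120917062). Its protein is cut by caspase-8 and then carries death receptor signals to Bax and Bak1. Bid had 55 counts in KO, against 15 and 14 in the WT libraries, or 208 CPM (95% Poisson interval 157 to 270) against 41.5 (23.2 to 68.4) and 43.1 CPM (23.6 to 72.3). The WT libraries were within counting error of each other, and the KO library was 5.01-fold (2.79 to 9.55) and 4.82-fold (2.65 to 9.39) above them. The log2 fold change of 2.33 (SE 1.25, edgeR adjusted p 0.54, unadjusted p 0.063) did not pass. Bid shared no exonic base with another gene among the annotated transcripts that match the counted rows.

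Bcl2l11 (chromosome 2, 128126038 to 128162547) encodes Bim, the BH3-only protein that rises when cytokine signals are withdrawn. It had 15 counts in KO, against 2 and 6 in WT, or 56.7 CPM against 5.53 and 18.5 CPM. The KO level was the highest, and the gene passed the filter on low counts only through that library, so it could not have been tested without a high KO value. The KO to WT ratio was 10.2 (exact 95% counting interval 2.38 to 92.3) for WT replicate 1 and 3.07 (1.13 to 9.65) for WT replicate 2. Its log2 fold change was 2.25 (SE 2.73, edgeR adjusted p 0.84).

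Bad (chromosome 19, 6941861 to 6951905), the BH3-only protein that growth factor kinases keep inactive, was detected in WT alone. It had 0 counts in KO, where up to 11.3 CPM could have gone unseen, against 11 and 2 counts, or 30.4 and 6.15 CPM, in WT. Set against a floor of 3 KO counts, its level was at least 1.67-fold lower in KO than in the pooled WT libraries. This holds only with the WT counts taken as exact, since their counting error was left out of the bound. This bound rests on WT replicate 1, since WT replicate 2 alone lay at 0.54 of the KO floor and sets no bound. Bad was not tested, for low counts, and 32.8% of its exonic bases lie under exons of Gpr137 on the opposite strand (25 counts in KO, 19 and 26 in WT). Reads of the pair cannot be told apart there, since the use of strand is not given in the sources used here.

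Bbc3, which encodes Puma, and Pmaip1, which encodes Noxa, are BH3-only genes induced by p53. Bbc3 (chromosome 7, 16308398 to 16318334) and Pmaip1 (chromosome 18, 66458604 to 66465558) had 0 counts in the KO library and in both WT libraries. This allows up to 11.3 CPM in KO and up to 8.30 and 9.23 CPM in the WT libraries, so no difference was detectable for either gene. Together the BH3-only genes summed to 264 CPM in KO, against 77.4 and 67.7 CPM in WT, and Bid made up 55 of the 70 KO counts.

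Counting error was set apart from the spread between libraries by the exact interval of each ratio. KO lay above both WT libraries beyond that interval for 3 of the 7 tested members, Mcl1, Bcl2l11 and Bid, and below both for 0 of 7. Among all tested genes the shares were 16.3% above and 17.6% below. Bcl2l11 was tested only because of its KO count, so its place among the 3 was partly set by the filter. The WT libraries themselves differed beyond counting error for 3 of the 7, Bcl2, Bax and Bak1, where 59.1% of all tested genes did. For 3 of the 7 the WT libraries were at least 2-fold apart (Bax, Bak1 and Bcl2l11), against 55.7% of all tested genes.

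**Figure D3:**
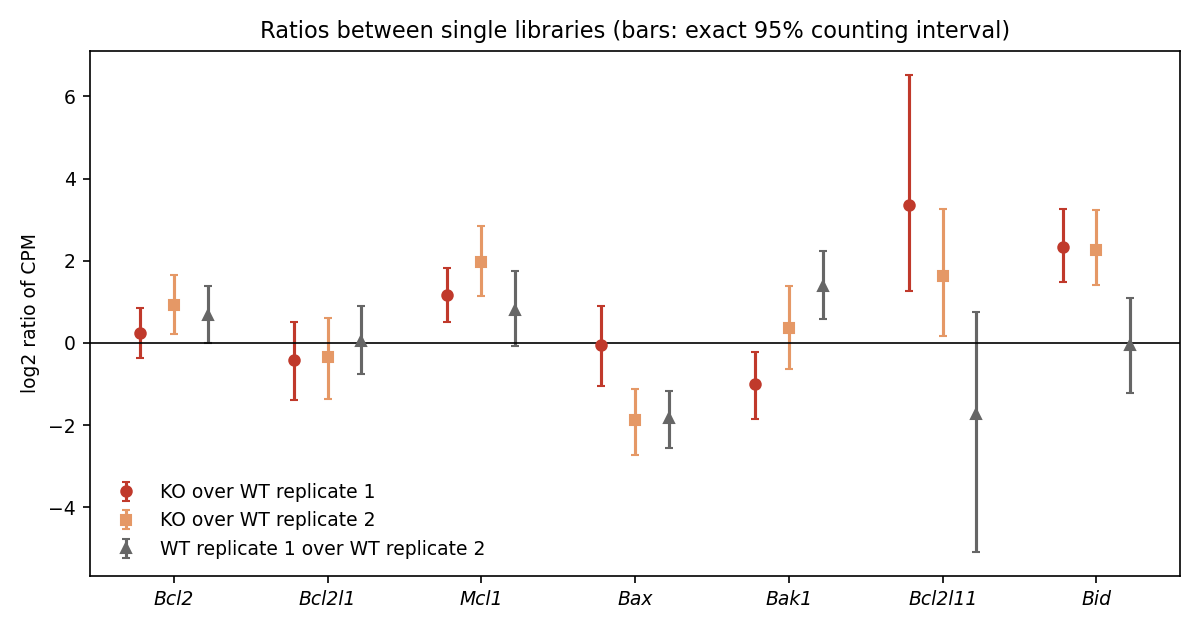
Log2 ratios of CPM between single libraries for the 7 tested members: KO over WT replicate 1 (circles), KO over WT replicate 2 (squares) and WT replicate 1 over WT replicate 2 (triangles), with exact 95% counting intervals. For Mcl1, Bcl2l11 and Bid both KO ratios lie above 0 with their intervals; for Bax the ratio between the WT libraries (log2 -1.84) is close to that of KO over WT replicate 2 (-1.88), and for Bak1 it (1.38) is larger in size than either KO ratio (-1.002 and 0.37).

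Survival and death genes were then weighed against each other within each library. The anti-apoptotic genes held 115 of 221 member counts in KO, against 114 of 218 and 71 of 188 in WT. This was 52.0% in KO (exact binomial 95% interval 45.2 to 58.8), 52.3% in WT replicate 1 (45.4 to 59.1) and 37.8% in WT replicate 2 (30.8 to 45.1). The KO share equalled that of WT replicate 1 within counting error, and the WT libraries were farther from each other than KO was from the nearer of them. KO minus the WT mean was 7.01 percentage points, less than the WT SD of 10.3 points (n = 2). It was 14.3 points against WT replicate 2 alone, -0.26 points against WT replicate 1 alone and -1.15 points without Mcl1. Without Bid the share was 69.3% in KO, against 56.2% and 40.8% in WT, and without Bax it was 56.4% against 58.8% and 64.0%, so that KO lay above both WT libraries in one case and below both in the other. An exact permutation of 1 library against 2 cannot give a p below 0.333, and no other test of the share was run. Per length, from the FPKM of the most counted transcript of each gene, the anti-apoptotic share was 34.0% in KO, against 26.9% and 13.0% in WT, a difference of 14.1 points. Several Bcl2l1 transcripts tied for the most counts, and the one with the highest FPKM was used. This was NR_149254 in KO (37.7 FPKM) but NM_009743 in WT (23.3 and 22.4), which had 0.099 FPKM in KO. The KO share from 1 transcript per gene depends on that choice, and a share with the same Bcl2l1 transcript in all libraries was not computed. From FPKM summed over all transcripts of each gene, which needs no such choice, the share was 34.1% in KO, against 28.2% and 15.3% in WT.

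Within the pro-apoptotic genes, a division by role chosen after the values were seen gave a wider gap. Bax and Bak1 held 36 of 106 pro-apoptotic counts in KO, against 76 of 104 and 95 of 117 in WT. The share was 34.0% in KO (25.04 to 43.80), 73.1% in WT replicate 1 (63.5 to 81.3) and 81.2% in WT replicate 2 (72.9 to 87.8). KO was below both WT libraries, and KO minus the WT mean was -43.2 points, beside a WT SD of 5.74 points (n = 2). That SD does not show the spread of the single genes. Between WT replicates 1 and 2, Bax rose from 24 to 77 counts and Bak1 fell from 52 to 18, which partly cancels in their sum. Without Bid the shares were 70.6% in KO against 85.4% and 92.2% in WT, and without Bax they were 21.3% against 65% and 45%. The difference was thus -18.2 points without Bid, and it rests on 1 KO library.

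**Figure D4:**
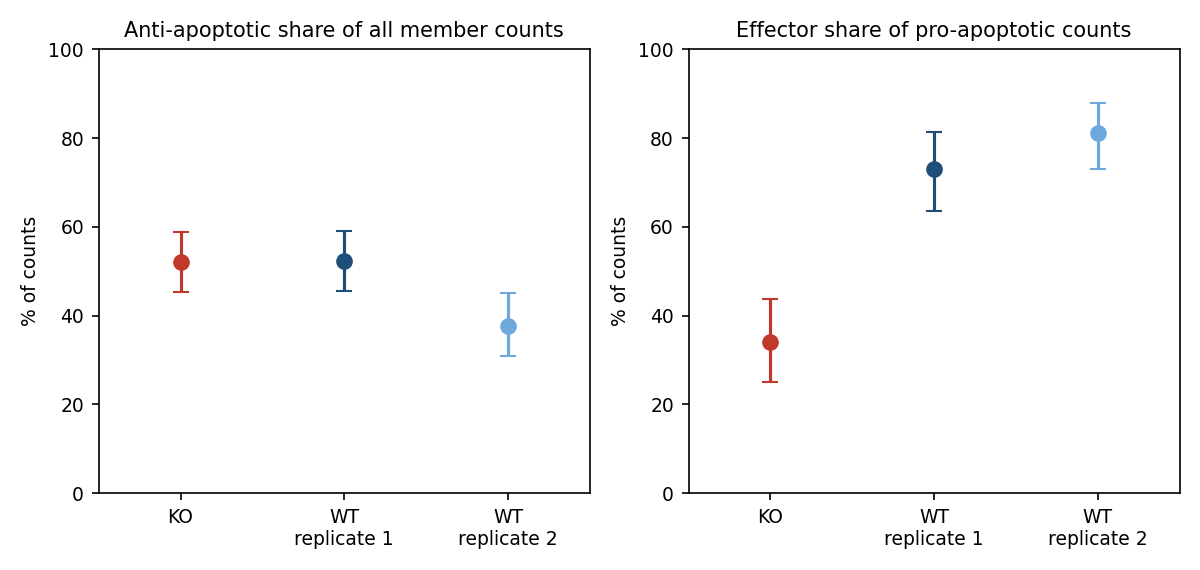
Left, counts of Bcl2, Bcl2l1 and Mcl1 as a percentage of the counts of all 10 members; right, counts of Bax and Bak1 as a percentage of pro-apoptotic counts; each point is 1 library with its exact binomial 95% interval. On the left KO (52.0%) and WT replicate 1 (52.3%) coincide; on the right KO (34.0%) lies below both WT libraries (73.1% and 81.2%).

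Levels per length, as summed FPKM, gave the order of the members in WT cells: Bax averaged 176 ± 140 FPKM (SD, n = 2), Bak1 50.01 ± 31.31, Bcl2l1 34.4 ± 0.94, Bid 22.5 ± 0.65, Bad 20.9 ± 19.6, Mcl1 20.7 ± 7.91, Bcl2 16.3 ± 5.35 and Bcl2l11 3.37 ± 3.12 FPKM. Of the 7 neighbouring pairs in that order only 3 did not overlap between the WT libraries: Bax over Bak1, Bcl2l1 over Bid, and Bcl2 over Bcl2l11. In the KO library the order was Bid with 111 FPKM, Bax 74.9, Mcl1 59.3, Bcl2l1 37.8, Bak1 36.3, Bcl2 23.9 and Bcl2l11 12.02 FPKM. Bid therefore ranked 1 in KO and 6 and 4 in the WT libraries, while Bax ranked 2 in KO and 1 in both WT libraries.

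Around the members, 67 further genes of the pathway were examined in 6 lists, of which 47 were tested and 13 had no count in any library. None passed (0 of 47 by edgeR, and 0 by DESeq2). Over all 7984 tested genes DESeq2 called 35 and gave no adjusted p to 5263. How many of the 47 were among those without an adjusted p was not counted. At an unadjusted p under 0.05 there was 1 higher and 4 lower by edgeR, beside 3.53% and 6.51% of all tested genes. The log2 fold change was positive in 25 of 47, with a median of 0.16, beside -0.31 over all tested genes.

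In the rest of the Bcl2 family, 0 of 4 tested genes passed, 2 had a positive log2 fold change, and 9 of 15 genes were at 0 in every library, among them Bmf, Hrk and Bik. Bnip3l, a mitochondrial protein with a BH3-like stretch that acts in mitophagy, had 6 counts in KO, against 63 and 61 in WT (22.7 CPM against 181 ± 9.55 CPM, SD, n = 2; log2 fold change -2.94, SE 1.39, edgeR adjusted p 0.44). Bcl2l13, its relative in mitophagy, had 37 counts in KO, against 0 and 10 in WT, and Bcl2l2, the guardian Bcl-w, had 16 against 26 and 12. The KO value thus lay outside the WT pair for Bnip3l and Bcl2l13 and inside it for Bcl2l2.

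Downstream, among the apoptosome and caspase genes 0 of 13 tested passed, and 7 were positive (median 0.57). Casp8, the caspase that cuts Bid, had 223 CPM in KO and 155 ± 7.57 CPM in WT (SD, n = 2), from 59, 54 and 52 counts (log2 fold change 0.57, SE 0.99, edgeR adjusted p 0.91). Casp2 had 7 counts in KO, against 71 and 38 in WT, and Cycs, cytochrome c, had 23 against 26 and 48. Apaf1, the scaffold that cytochrome c assembles, was chosen after its values were known, and had 60 counts in KO, against 9 and 26 in WT (log2 fold change 2.15, SE 1.18, edgeR adjusted p 0.56). Casp2 was thus lower and Apaf1 higher in KO than in either WT library, and neither passed.

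Of the 5 caspase inhibitors tested 0 passed and 2 were positive (median -0.17). Birc5, survivin, which also acts in mitosis, had 5 counts in KO, against 51 and 64 in WT (log2 fold change -3.09, SE 1.46, edgeR adjusted p 0.44). Birc3 had 33 against 41 and 57 counts, and Birc6 had 38 against 53 and 21. In the outer membrane channel and dynamics list 0 of 6 passed (4 positive, median 0.19), and of the channel genes Vdac1 had 234 CPM in KO and 186 ± 32.6 CPM in WT, and Vdac2 had 83.1 CPM in KO and 94.7 ± 0.98 CPM in WT (SD, n = 2 each). Vdac3, chosen after its values were known, had 7 counts in KO, against 41 and 20 in WT (log2 fold change -1.68, SE 1.72, edgeR adjusted p 0.82). Dnm1l, the fission GTPase, had 74 counts in KO, against 57 and 30 in WT.

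Upstream regulators of the family gave 0 calls among 15 tested genes, 8 of them positive (median 0.082). Huwe1, a ubiquitin ligase for Mcl1, had 533 CPM in KO and 518 ± 98.9 CPM in WT. Pim1, a cytokine-induced kinase that phosphorylates Bad, had 302 CPM in KO and 526 ± 77.7 CPM in WT (log2 fold change -0.76, SE 0.68, edgeR adjusted p 0.79). Mdm4, a p53 inhibitor, had 578 CPM in KO and 318 ± 19.9 CPM in WT (SD, n = 2 each; log2 fold change 0.90, SE 0.67, edgeR adjusted p 0.74). These abundant regulators were measured with a smaller SE than any of the 7 tested members. Among death receptors and ligands 0 of 4 passed (2 positive, median -1.03), and Fas, Fasl and Tnfrsf10b had no counts in any library. Tnfrsf1a, the TNF receptor, had 15 counts in KO, against 82 and 107 in WT (log2 fold change -2.24, SE 1.09, edgeR adjusted p 0.46). Ripk3 had 47 against 28 and 34 counts, and Tnfsf10, the ligand TRAIL, had 3 against 22 and 33.

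**Figure D5:**
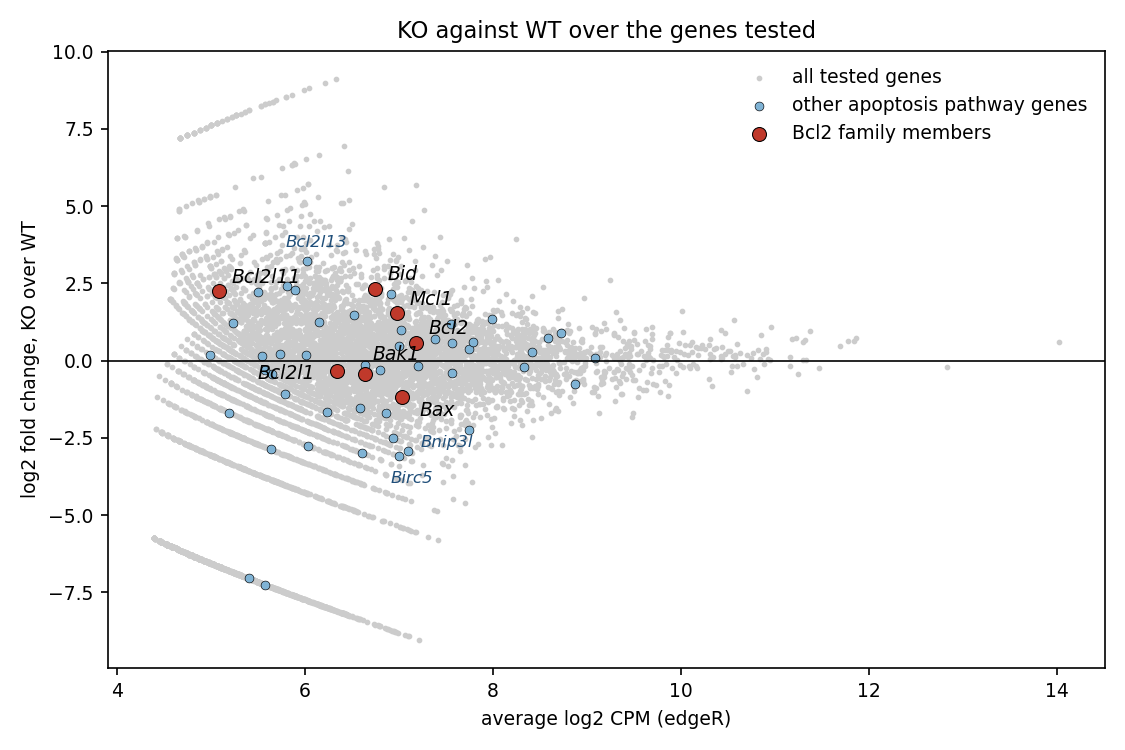
Log2 fold change (KO over WT) against average log2 CPM for the 7984 genes tested (grey), the 47 tested pathway genes (blue) and the 7 tested members (red). The members lie between -1.19 (Bax) and 2.33 (Bid), inside the cloud of genes of like abundance.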

How the data were processed

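RNA was sequenced from LKS cells, with 1 KO and 2 WT libraries grouped by their titles. The authors deposited whole-number counts and FPKM per RefSeq transcript; the submitters' processing notes name STAR and mm10 without versions, with the counting tool and use of strand not given in the sources used here. The gene count was the highest count over the 42574 transcript rows of each of 24982 symbols, since transcripts repeat shared reads, and CPM was taken on the total of gene counts. Gene FPKM was summed over rows. The gene test was that of edgeR 4.0.16, run in R 4.3.3 (filterByExpr, TMM, quasi-likelihood test, threshold 0.05) with 1 residual degree of freedom, so the single KO library takes its spread from the WT libraries. SE is the absolute log2 fold change over the square root of F. The spread behind SE and p was pooled over genes (common biological coefficient of variation 0.811), so a gene's own WT spread had little weight. Bid and Bax, with WT libraries 1.04-fold and 3.57-fold apart, both had an SE of 1.25. Alternatives used DESeq2 1.42.0 and limma 3.58.1. Intervals (95%) and the floor of 3 counts cover counting error only. Locations come from RefSeq and overlaps from GENCODE on GRCm38, the build of mm10. Members and lists were chosen with earlier results of these data known. Named were all members and, per list, calls and the 3 most abundant genes; others are marked or are genes at 0.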

Additional observations from a re-analysis of the deposited data

How the results depend on the processing

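No paired analysis was possible because the KO library carries no replicate number. Over all genes the count of 8 calls (8 higher, 0 lower) was 35 with DESeq2 (18 higher, 17 lower; 5263 genes had no adjusted p), 4 without a filter, 1 with the mean over transcript rows, and 0 with at least 10 counts in every library or 50 in any, without Rn45s, with limma on FPKM, and with DESeq2 on all genes with a count, an alternative added after seeing the data. The members called stayed at 0 in every tested alternative, as did the pathway genes called. Of 61 member fold changes under those alternatives, 60 had the direction reported; the exception was Bcl2l1, at 0.13 with FPKM. With 1 WT library left out there is no test: Bak1 ranged from -0.91 to 0.38, changing sign, Bax from -1.73 to -0.017, Bcl2 from 0.26 to 0.93, Bcl2l11 from 1.37 to 2.42, Mcl1 from 1.14 to 1.88, Bid from 2.15 to 2.19 and Bcl2l1 from -0.35 to -0.27, while the anti-apoptotic share difference ranged from -0.26 to 14.3 points. Without Bid, also added later, that difference was 20.8 points, and without Bax -4.99. The effector share difference, added after seeing the data, was -33.3 points with FPKM, -18.2 without Bid and -33.7 without Bax. The members had 0 to 77 counts each, and the SE of those tested was 1.10 to 2.73 on the log2 scale.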
